A study of Homo sapiens with 7 samples.

Results

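After knockdown of DEPDC1 in MDA-MB-231 cells, 42 genes of programmed cell death were followed. They are the BCL2 family, the caspases, the death receptors with their adaptors and inhibitors, and the proteins that act at and beyond the mitochondrion, chosen by name as genes of these families from the 60675 rows of the deposited count table. All 42 were found. MDA-MB-231 is a human triple-negative breast cancer line, so called because such tumours lack the oestrogen and progesterone receptors and amplified ERBB2. One group received a control siRNA (siCTL, n = 3 libraries, labelled DEPDC1 WT) and the other an siRNA against DEPDC1 (siDEPDC1, n = 4 libraries, labelled DEPDC1 KD), both delivered with the lipid reagent RNAiMAX. In both groups the medium was changed after 8 h and RNA was taken 2 days after transfection. All libraries come from this 1 cell line and the labels do not say that replicates were separate cultures. The p-values thus weigh the difference between groups only against the spread among libraries within a group, and that spread may be technical.

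In the mitochondrial route to apoptosis, BH3-only proteins sense stress and bind the BCL2-like inhibitors, which otherwise restrain the pore-forming proteins of the outer mitochondrial membrane. Once the membrane is open, cytochrome c binds APAF1 and builds the apoptosome, which activates caspase-9. In the extrinsic route, death receptors such as those for TRAIL recruit FADD and caspase-8, and CFLAR (c-FLIP) holds that caspase in check. When caspases are blocked, RIPK1, RIPK3 and MLKL can drive necroptosis, a lytic form of death.

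The libraries held 7690583 to 15360409 counts, and levels are given in CPM, which are counts scaled to library size with TMM factors. DEPDC1 fell from 118 ± 3.20 to 13.3 ± 1.43 CPM (± SD here and below for levels, ± SE for log2 fold changes), in the direction that the labels give. The mesenchymal marker VIM was at 3710 ± 166 CPM in siCTL, ESR1 and PGR were at 0.278 ± 0.225 and 0.329 ± 0.124 CPM, and ERBB2, which a triple-negative label does not require to be silent, was at 64.5 ± 0.869 CPM. The 13 markers of other cell types summed to 42.0 to 46.0 CPM in siCTL and 60.3 to 67.7 CPM in siDEPDC1. COL1A1 made most of that difference (12.9 ± 1.35 and 30.2 ± 2.52 CPM), and HBB had no count in any library. Their part in the results below was not tested. In bulk RNA, a change in every cell and a change in the share of cells that express a gene cannot be told apart.

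Of the 42 members, 39 passed the filter on low counts. Among these, 11 were lower and 4 higher after DEPDC1 siRNA (edgeR's quasi-likelihood F test with p-values adjusted by Benjamini-Hochberg over all 16583 tested genes, threshold 0.05), or 28.2% and 10.3%. Over all tested genes 17.9% were lower and 16.5% higher, together 34.4%, against 38.5% of the tested members. The median log2 fold change (siDEPDC1 over siCTL) was -0.10 in these members and 0.0009 over all tested genes. In 18 of the 39 (46.2%) no siDEPDC1 library overlapped the siCTL range, against 37.3% of all tested genes. The 3 members APAF1, BAK1 and MCL1 were called and lower by at least 1.5-fold, as were 4.59% of all tested genes. No test of the list as a whole was made.

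Some survival members and some death-promoting members were lower. The 4 members called higher were all death-promoting, as were 28 of the 39 tested members. Of the 9 survival members 8 were tested, and 4 (50%) were lower (MCL1, CFLAR, XIAP and TNFRSF10D), 0 were higher and 4 were not called, with a median log2 fold change of -0.24. None of the survival members was higher at an unadjusted p under 0.05 either, nor with DESeq2 or limma-voom. Of the 30 death-promoting members 28 were tested, and 6 (21.4%) were lower (APAF1, BAK1, CYCS, PMAIP1, TNFRSF1A and MLKL), 4 (14.3%) were higher (BMF, BBC3, BAD and CASP9) and 18 were not called, with a median of -0.095. These shares of the death-promoting members lie near the 17.9% and 16.5% of all tested genes. The difference between the classes was not tested. Of the lower survival members, MCL1, CFLAR and XIAP carry the word GATAACT, described below, which was picked in these same libraries because its carriers were lower. TNFRSF10D was the only survival member called lower without it. Among the lower death-promoting members, BAK1 carries it in the kept transcript. Whether the word bears on the difference between the classes was not tested. RIPK1, which serves both survival and death, was lower, and the other members put in neither class, BCL2L13 and DFFA, were not called.

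**Figure D1:**
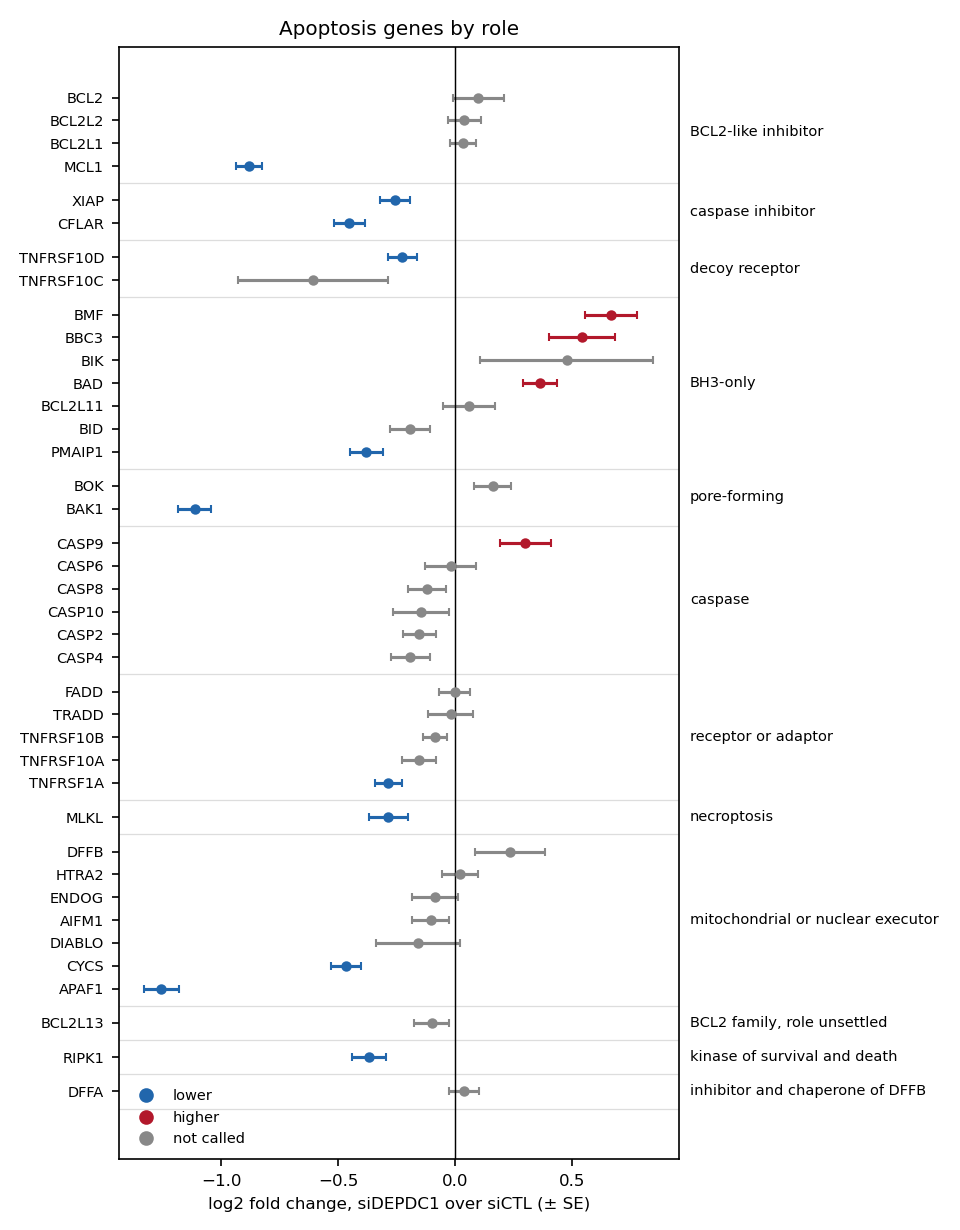
Log2 fold change of each of the 39 tested members (horizontal axis, siDEPDC1 over siCTL, bars are the standard error), grouped by role and coloured by the edgeR call at an adjusted p of 0.05. APAF1 (-1.25), BAK1 (-1.11) and MCL1 (-0.88) lie apart on the left, and BMF (0.67) and BBC3 (0.54) are the called genes farthest to the right.

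APAF1 had the largest fold change of the 39. It encodes the scaffold on which cytochrome c assembles the apoptosome. The siCTL libraries had 51.0, 53.6 and 54.3 CPM of APAF1, the siDEPDC1 libraries 24.6, 21.4, 22.0 and 20.9 CPM. Even the highest knockdown library was thus far below the lowest control library. The fall was 2.39-fold (log2 fold change -1.25 ± 0.074, SE; edgeR adjusted p = 1.2e-15). ANKS1B, which runs on the opposite strand and shares 750 of the 7908 exon bases of APAF1, fell too, from 5.53 to 2.71 CPM. The sources used here do not state a strand setting for the counting, so reads from the shared bases cannot be assigned to either gene, here and for the other overlaps below.

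BAK1 encodes a protein that forms the pore in the outer mitochondrial membrane, and BOK is a more divergent relative. BAK1 was at 66.8, 71.7 and 63.0 CPM in siCTL and at 31.4, 30.2, 30.0 and 32.8 CPM in siDEPDC1. No knockdown library came near the control range, and the fall was 2.16-fold (log2 fold change -1.11 ± 0.070; edgeR adjusted p = 5.9e-15). GGNBP1, annotated as a transcribed pseudogene, shares 91 of the 2212 exon bases on the opposite strand and went from 10.9 to 5.49 CPM. BOK stood at 33.4, 31.7 and 28.7 CPM in siCTL and 32.1, 36.3, 32.0 and 38.9 CPM in siDEPDC1, and the groups overlapped (log2 fold change 0.16 ± 0.080; edgeR adjusted p = 0.12). BOK passed the test as higher once siDEPDC1 replicate 1 was left out (edgeR adjusted p = 0.044). Per kilobase of exon, BAK1 transcripts were 2.64 ± 0.168 times as abundant as BOK transcripts in siCTL and 1.10 ± 0.0878 times in siDEPDC1.

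Among the BCL2-like inhibitors that were tested, MCL1 fell and the others did not pass the test. MCL1 is a short-lived inhibitor that binds BAK1 and several BH3-only proteins. It was at 357, 374 and 365 CPM in siCTL and 215, 202, 190 and 187 CPM in siDEPDC1. The 4 knockdown libraries all lay far below the control range, a 1.84-fold fall (log2 fold change -0.88 ± 0.056; edgeR adjusted p = 7.6e-15). BCL2L1, the gene of BCL-XL and the most abundant inhibitor here, was at 625, 619 and 590 CPM in siCTL and 570, 621, 650 and 663 CPM in siDEPDC1. Its knockdown libraries spread to both sides of the controls (log2 fold change 0.03 ± 0.057; edgeR adjusted p = 0.69). The antisense gene ABALON shares 1424 of the 3314 exon bases of BCL2L1 and was counted at 233 and 238 CPM, so the level of BCL2L1 is uncertain.

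BCL2L2, the gene of BCL-W, had 41.5, 39.4 and 40.4 CPM in siCTL and 38.6, 40.8, 43.9 and 43.1 CPM in siDEPDC1. BCL2 itself was low, at 10.5, 10.7 and 9.12 CPM in siCTL and 10.9, 10.3, 11.6 and 11 CPM in siDEPDC1. In both genes the groups overlapped, with log2 fold changes of 0.04 ± 0.071 and 0.10 ± 0.11 (edgeR adjusted p = 0.70 and 0.51). BCL2A1, an NF-kB target, was near the limit of detection and not tested, with 5, 4 and 5 counts in siCTL and 2, 1, 0 and 2 counts in siDEPDC1. The 0 counts in siDEPDC1 replicate 3 allow up to 0.391 CPM, taking 3 counts as the limit, for counting error only.

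**Figure D2:**
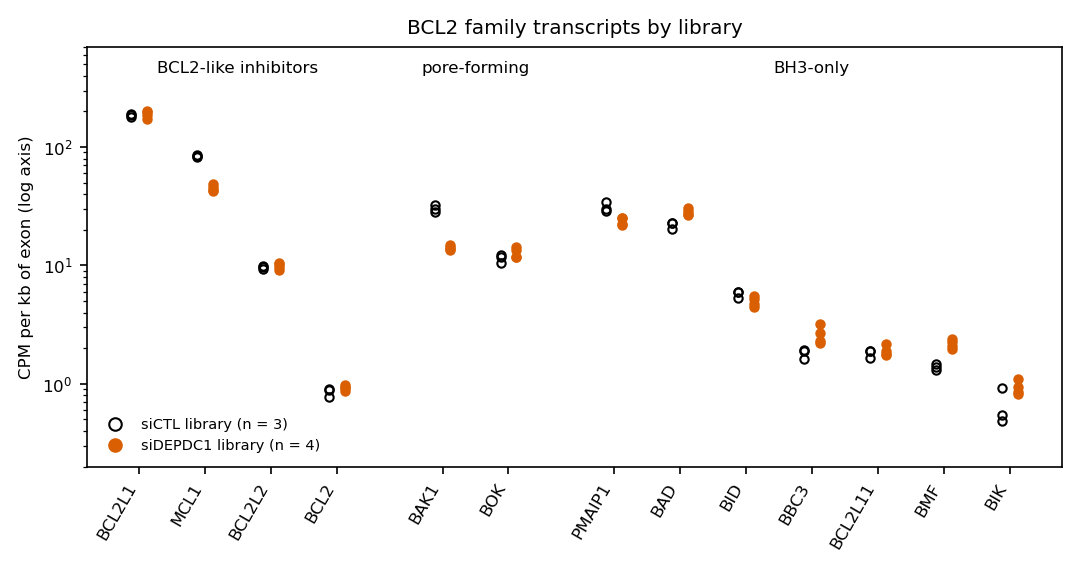
Level of each tested inhibitor, pore-forming and BH3-only gene in CPM per kilobase of exon (vertical log axis), one point per library, open black for siCTL (n = 3) and orange for siDEPDC1 (n = 4). BCL2L1 leads the inhibitors in every library, while MCL1 drops from a mean of 83.6 to 45.4 and BAK1 from 30.4 to 14.1 CPM per kilobase.

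Per kilobase of exon, the order of the inhibitors was the same in both groups. In siCTL it ran from BCL2L1 (185 CPM per kilobase) through MCL1 (83.6) and BCL2L2 (9.65) to BCL2 (0.858) and BCL2A1 (0.326), and in siDEPDC1 the values were 189, 45.4, 9.93, 0.929 and 0.103. The summed level of the 5 genes was 282, 283 and 273 in siCTL and 232, 244, 251 and 254 in siDEPDC1. MCL1 held 30.0 ± 0.834% of that sum in siCTL and 18.6 ± 1.98% in siDEPDC1, while BCL2L1 went from 66.1 ± 0.817% to 77.0 ± 1.95%. These shares describe the libraries and were not tested, and lengths are unions of annotated exons, which understate a gene with long unused exons.

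MCL1 and BAK1 both fell, and their ratio overlapped between the groups. MCL1 over BAK1, per kilobase, was 2.71, 2.64 and 2.93 in siCTL and 3.46, 3.38, 3.20 and 2.89 in siDEPDC1, with siDEPDC1 replicate 4 inside the control range. BCL2L1 over BAK1, in contrast, was 6.25, 5.77 and 6.26 in siCTL and 12.1, 13.7, 14.5 and 13.5 in siDEPDC1. Each knockdown library was thus well above each control library in the ratio of BCL2L1 to BAK1 counts, where BAK1 fell and BCL2L1 was not called. The size of this ratio shares the uncertainty of the BCL2L1 level given above.

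Among the BH3-only genes, BMF, BBC3 and BAD were higher and PMAIP1 was lower. Of 8 members 7 were tested, so that 42.9% were higher and 14.3% lower, against 16.5% and 17.9% of all tested genes, and 3 were not called. BMF, whose product binds the BCL2-like inhibitors, was at 7.07, 7.55 and 7.99 CPM in siCTL and 11.3, 13.0, 10.7 and 12.2 CPM in siDEPDC1. It rose 1.59-fold without overlap of the groups (log2 fold change 0.67 ± 0.11; edgeR adjusted p = 2.1e-05). BMF-AS1 shares 461 of the 5447 exon bases on the opposite strand and rose from 1.04 to 1.86 CPM. BBC3, which encodes PUMA, was at 5.16, 6.17 and 5.99 CPM in siCTL and 7.34, 8.62, 7.03 and 10.2 CPM in siDEPDC1. It rose 1.46-fold, with siDEPDC1 replicate 4 the highest library (log2 fold change 0.54 ± 0.14; edgeR adjusted p = 0.0025).

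BAD, a partner of BCL-XL that phosphorylation keeps inactive, was at 39.0, 38.9 and 34.6 CPM in siCTL and 45.5, 46.5, 49.1 and 52.2 CPM in siDEPDC1. All knockdown libraries were above all controls, a 1.28-fold rise (log2 fold change 0.36 ± 0.073; edgeR adjusted p = 1.7e-04). Its opposite-strand neighbour GPR137 shares 404 of the 1708 exon bases of BAD and went from 62.3 to 73.1 CPM. PMAIP1, which encodes NOXA, a selective ligand of MCL1, went the other way, from 64.2, 66.9 and 76.8 CPM in siCTL to 56.2, 56.4, 50.3 and 49.2 CPM in siDEPDC1. The groups did not overlap and the fall was 1.30-fold (log2 fold change -0.38 ± 0.070; edgeR adjusted p = 5.8e-05). MCL1 fell by more than its ligand, so that the ratio of MCL1 to PMAIP1 per kilobase was 2.71 ± 0.242 in siCTL and 1.91 ± 0.0568 in siDEPDC1.

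No call was made for the other BH3-only genes. BID, which caspase-8 cleaves to link the receptor route to the mitochondrion, was at 25.5 ± 1.78 and 22.1 ± 2.23 CPM (log2 fold change -0.19 ± 0.085; edgeR adjusted p = 0.076). It passed as lower without siCTL replicate 1 (edgeR adjusted p = 0.049) and without siDEPDC1 replicate 2 (edgeR adjusted p = 0.037). BCL2L11, the gene of BIM, was at 12.1 ± 0.931 and 12.7 ± 1.24 CPM. The opposite-strand gene MIR4435-2HG shares 727 of its 6658 exon bases and was counted at 71.7 and 66.4 CPM, so the level of BCL2L11 is uncertain. BIK stayed below 1.1 CPM in every library, and HRK, with 0 to 2 counts a library, was not tested. The summed level of the 8 genes was 64.4 ± 1.85 CPM per kilobase in siCTL and 64.6 ± 1.45 in siDEPDC1, while its make-up differed. PMAIP1 held 48.1 ± 3.23% of it in siCTL and 36.7 ± 2.77% in siDEPDC1, and BAD 34.2 ± 3.19% and 43.8 ± 2.52%. The inhibitor sum over the BH3-only sum was 4.34 ± 0.202 in siCTL and 3.79 ± 0.150 in siDEPDC1, without overlap.

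**Figure D3:**
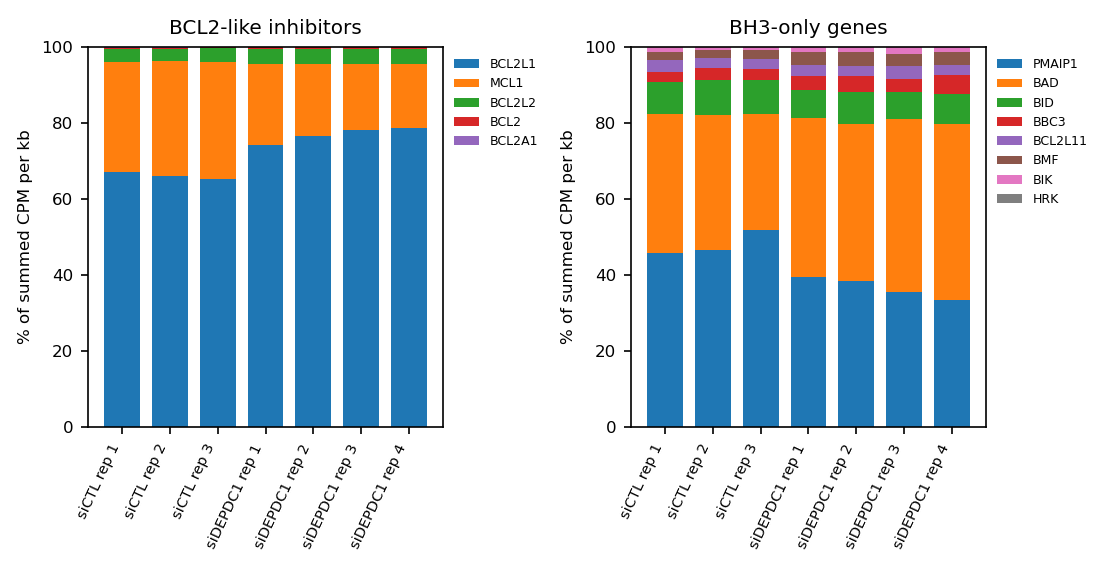
Share of the summed CPM per kilobase (vertical axis, percent) held by each gene in each library, for the 5 BCL2-like inhibitors on the left and the 8 BH3-only genes on the right. MCL1 narrows from 30.0% to 18.6% of the inhibitors on average, and PMAIP1 gives way to BAD among the BH3-only genes.

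Downstream of the mitochondrion, cytochrome c fell along with APAF1, and caspase-9 was slightly higher. CYCS, the somatic cytochrome c gene, was at 142, 150 and 140 CPM in siCTL and 100, 117, 107 and 92.4 CPM in siDEPDC1. It fell 1.38-fold with no overlap of the groups (log2 fold change -0.47 ± 0.064; edgeR adjusted p = 4.6e-07). CASP9, the initiator caspase of the apoptosome, was at 9.06, 10.7 and 10.3 CPM in siCTL and 11.7, 11.6, 12.8 and 13.5 CPM in siDEPDC1. Its 1.23-fold rise passed the test narrowly (log2 fold change 0.30 ± 0.11; edgeR adjusted p = 0.029). Leaving out siCTL replicate 1 ended the call (edgeR adjusted p = 0.17), as did leaving out replicate 3 or 4 of siDEPDC1 (0.059 and 0.086), and so did the use of DESeq2 (adjusted p = 0.089). The ratio of APAF1 to CASP9 per kilobase was 3.54 ± 0.207 in siCTL and 1.20 ± 0.150 in siDEPDC1.

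XIAP, which inhibits caspase-9 and the effector caspases directly, was at 88.1, 95.9 and 102 CPM in siCTL and 86.5, 78.6, 75.8 and 78.1 CPM in siDEPDC1. The highest knockdown library lay just under the lowest control, and the fall was 1.19-fold (log2 fold change -0.26 ± 0.063; edgeR adjusted p = 0.0017). DIABLO and HTRA2, released from mitochondria to bind XIAP, were not called and had log2 fold changes of -0.16 ± 0.18 and 0.02 ± 0.077. DIABLO was counted at only 3.35 ± 0.117 CPM in siCTL. Annotated genes on both strands share exon bases with it, B3GNT4 among them at 48.0 CPM, so the level of DIABLO is uncertain. HTRA2 likewise shares 483 of its 3001 exon bases with AUP1 on the opposite strand, counted at 96.1 CPM. The nuclease ENDOG and the flavoprotein AIFM1, which reach the nucleus without caspases, had log2 fold changes of -0.08 ± 0.098 and -0.10 ± 0.079. The caspase-activated nuclease DFFB and its inhibitor and chaperone DFFA had 0.24 ± 0.15 and 0.04 ± 0.064, and BCL2L13, a mitochondrial BCL2 relative, had -0.10 ± 0.073.

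The other caspases did not pass the test. CASP8, the initiator at death receptors, was at 26.4 ± 0.859 CPM in siCTL and 24.3 ± 2.39 CPM in siDEPDC1 (log2 fold change -0.12 ± 0.082; edgeR adjusted p = 0.27), and CASP10, its close relative, at 10.6 ± 1.51 and 9.34 ± 1.14 CPM. CASP2, CASP6 and the inflammatory caspase CASP4 had log2 fold changes of -0.15 ± 0.072, -0.02 ± 0.11 and -0.19 ± 0.085. CASP4 passed as lower without siDEPDC1 replicate 1 (edgeR adjusted p = 0.017). With edgeR, 0 of the 6 caspases were lower at the adjusted threshold and 2 at an unadjusted p under 0.05, and DESeq2 and limma-voom also called 0.

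CFLAR stands beside CASP10 and CASP8 on chromosome 2 (GRCh38, CFLAR at 201116104 to 201176687, CASP10 from 201182881, CASP8 from 201233443). It was at 52.9, 51.6 and 53.3 CPM in siCTL and 40.5, 37.9, 37.6 and 37.6 CPM in siDEPDC1. The spread within each group was a small part of the gap between them, and the fall was 1.37-fold (log2 fold change -0.45 ± 0.067; edgeR adjusted p = 1.9e-06). Of the 3 neighbours only CFLAR was called, but the differences between their fold changes were not tested. Per kilobase, the ratio of CFLAR to CASP8 was 0.641 ± 0.023 in siCTL and 0.510 ± 0.0342 in siDEPDC1. A ratio below 1 rests on the lengths used, 22529 exon bases for CFLAR and 7243 for CASP8. Without scaling to length, CFLAR was above CASP8, at 52.6 against 26.4 CPM in siCTL and 38.4 against 24.3 CPM in siDEPDC1. The opposite-strand transcripts CFLAR-AS1 and IMPDH1P10 share exon bases with CFLAR and had log2 fold changes of -0.52 and -0.66.

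At the cell surface, the TNF receptor and a TRAIL decoy receptor were slightly lower. TNFRSF1A, the main receptor for TNF, was at 142, 142 and 134 CPM in siCTL and 110, 116, 113 and 118 CPM in siDEPDC1. It fell 1.22-fold with clear separation of the groups (log2 fold change -0.28 ± 0.056; edgeR adjusted p = 1.3e-04). TNFRSF10D, a TRAIL receptor with a truncated death domain, was at 61.6, 67.2 and 63.6 CPM in siCTL and 55.2, 54.7, 54.6 and 55.2 CPM in siDEPDC1. The knockdown libraries were nearly identical to each other and all below the controls, a 1.17-fold fall (log2 fold change -0.23 ± 0.063; edgeR adjusted p = 0.0053). Without siCTL replicate 2 that call was lost (edgeR adjusted p = 0.056).

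The signalling TRAIL receptors missed the threshold, although their groups did not overlap. TNFRSF10B (DR5) was at 226 ± 4.94 and 212 ± 6.06 CPM (log2 fold change -0.09 ± 0.053; edgeR adjusted p = 0.22), and TNFRSF10A (DR4) at 35.1 ± 0.543 and 31.5 ± 1.04 CPM (log2 fold change -0.16 ± 0.072; edgeR adjusted p = 0.092). TNFRSF10C, a decoy without a death domain, was at 1.46 ± 0.0797 and 0.893 ± 0.497 CPM (edgeR adjusted p = 0.14). Signalling over decoy TRAIL receptors, summed per kilobase, came to 2.98, 2.85 and 3.00 in siCTL and 3.35, 3.18, 3.23 and 3.22 in siDEPDC1. The adaptors FADD and TRADD, which carry the signal inward, had log2 fold changes of -0.0015 ± 0.067 and -0.02 ± 0.096. The antisense gene AP000879.1 shares 1011 of the 1841 exon bases of FADD and was counted at 48.1 CPM.

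RIPK1 and MLKL, which act in necroptosis, were lower. RIPK1, the kinase that sits between survival signalling and death downstream of TNF, was at 42.4, 48.1 and 42.6 CPM in siCTL and 35.9, 33.4, 34.8 and 33.9 CPM in siDEPDC1. It fell 1.29-fold without overlap (log2 fold change -0.37 ± 0.072; edgeR adjusted p = 1.3e-04). MLKL, which ruptures the plasma membrane when RIPK3 phosphorylates it, was at 23.6, 22.5 and 24.8 CPM in siCTL and 20.4, 20.6, 18.4 and 17.6 CPM in siDEPDC1. The groups did not overlap, and the fall was 1.22-fold (log2 fold change -0.29 ± 0.084; edgeR adjusted p = 0.0081). RIPK3 had 0 to 2 counts in every library and was not tested.

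**Figure D4:**
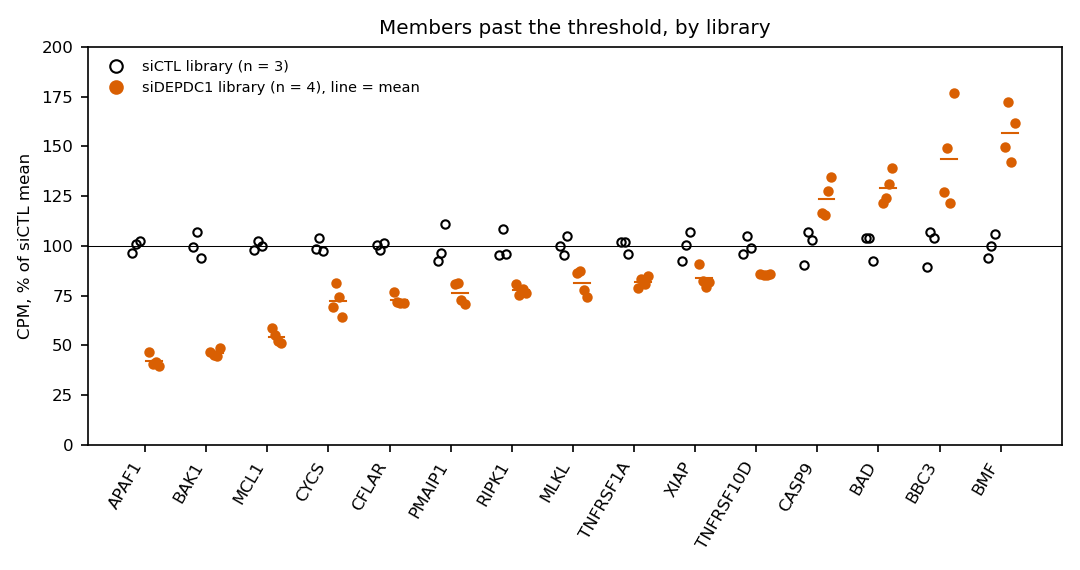
CPM of the 15 called members in each library as a percentage of the siCTL mean (vertical axis), open black for siCTL (n = 3), orange for siDEPDC1 (n = 4) with a line at the mean. No knockdown library overlaps the control range in any of the 15 genes, though the gap is narrow for XIAP.

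Several of the members that fell carry the same 7 bases in their 3' UTR. The word GATAACT had been picked in earlier work on these same libraries because genes with it were lower, so its presence here is a description and supports nothing further. A single GENCODE 29 transcript was kept per gene and searched where its 3' UTR reached 50 bases, which left out CASP8 and held for 38 of the 39 tested members. The word was present in 5 of these, of which BAK1, MCL1, CFLAR and XIAP were lower and CASP2 was not called. Over all searched tested genes 7.71% carried it, and 54.1% of these carriers were lower against 17.5% of the others. The sites in members that fell are shown as transcript sequence with the word in capitals, since these are the bases that they share.
BAK1: ctggggagactGATAACTtggggaggcaa
MCL1: ggaacaaatctGATAACTatgcaggttta
CFLAR: gagagcatcagGATAACTagctaatgcat
XIAP: aattcttacatGATAACTcagtgatgctt
APAF1: tgttaatagtaGATAACTtgtttttattg
APAF1, whose word lies only outside the kept transcript, is shown but was not counted as a carrier. The site of CASP2, the carrier that was not called, is not shown.

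In GRCh38 the words lie at chr6:33573507-33573513 (BAK1, minus strand), chr1:150576458-150576464 (MCL1, minus strand), chr2:201171527-201171533 (CFLAR, plus strand), chrX:123911137-123911143 (XIAP, plus strand) and chr12:98734513-98734519 (APAF1, plus strand). The annotation places the word in the 3' UTR of 3 of 3 searched BAK1 transcripts and 3 of 3 XIAP transcripts, 2 of 3 MCL1 transcripts, 4 of 9 APAF1 transcripts and 1 of 11 CFLAR transcripts. Which of these isoforms the cells use cannot be read from counts per gene. In BAK1 the word starts at base 290 of a 3' UTR of 1251 bases, in MCL1 at base 911 of 2819, and in the single CFLAR transcript at base 7554 of 12714. APAF1 aside, the falls of CYCS, PMAIP1, RIPK1, MLKL, TNFRSF1A and TNFRSF10D were in genes with no copy in any searched transcript, and so were the rises of BMF, BBC3, BAD and CASP9. Among members with no copy in the kept transcript, 7 of 33 were lower and 4 higher, with a median log2 fold change of -0.084 (0.014 in all searched genes without the word). No source used here gives the siRNA sequence, so any relation between it and the word was not tested.

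**Figure D5:**
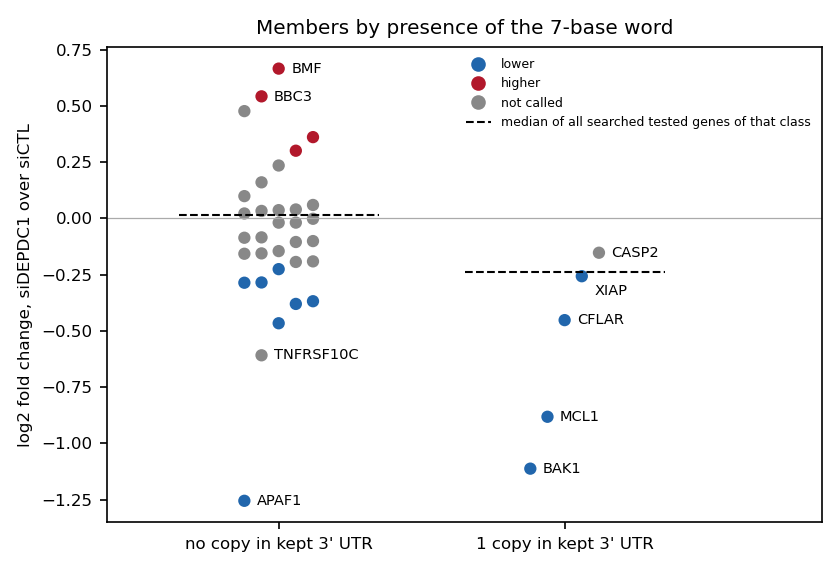
Log2 fold change (vertical axis) of the 38 searched members, split by whether the kept transcript has the 7-base word in its 3' UTR, coloured by call, with dashed lines at the median of all searched genes of that class (0.014 without it, -0.24 with it). All 5 carriers are below 0, and APAF1, plotted on the left, has the word in other isoforms.

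A further 53 genes of the same pathways were read from the fit as companions, chosen like the members with earlier results known. Of these 44 were tested, with 10 lower (22.7%) and 9 higher (20.5%) and a median log2 fold change of -0.02, near the 17.9% and 16.5% of all tested genes. The ligand TNFSF10 (TRAIL) fell 1.58-fold, from 14.7 ± 2.39 to 9.12 ± 1.06 CPM (edgeR adjusted p = 3.1e-05). TNFRSF11B, a soluble receptor that can bind TRAIL, fell 2.43-fold from 3.87 ± 1.32 CPM. The inhibitor of apoptosis BIRC3 fell 1.61-fold (66.9 ± 4.41 to 41.5 ± 4.10 CPM) and its partner at TNF receptors, TRAF1, fell 1.43-fold. FBXW7, a ubiquitin ligase subunit for which MCL1 is a substrate, fell 1.29-fold, and CASP8AP2, a caspase-8 binding protein, 1.25-fold.

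In the other direction, TNFRSF1B, the second TNF receptor, which lacks a death domain, rose 2.03-fold, from 6.71 ± 0.458 to 13.5 ± 2.16 CPM (edgeR adjusted p = 4.5e-08). Its change was opposite in sign to that of TNFRSF1A. BNIP3, a hypoxia-induced BCL2 relative that marks mitochondria for autophagy, rose 1.42-fold, from 227 ± 11.5 to 321 ± 5.23 CPM. BIRC5 (survivin), an inhibitor of apoptosis family protein with a role in mitosis, rose 1.35-fold and the mitochondrial channel gene VDAC3 1.23-fold. TNFSF12, which encodes the ligand TWEAK, was at 7.16 ± 1.04 and 10.6 ± 1.49 CPM (log2 fold change 0.59; edgeR adjusted p = 5.6e-04).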

How the data were processed

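Per the labels' protocols, total RNA was made into TruSeq libraries and sequenced as paired reads. The authors deposited raw counts per Ensembl gene and library. Per the submitters' processing notes, the build was GRCh38 and FastQC, STAR 2.7.9a and DESeq2 were named, with no role given. No source used here states the read counter, the annotation release or the strand setting.

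Members were matched by symbol through a name table. The 16583 genes that passed filterByExpr entered a single fit in edgeR 4.0.16 under R 4.3.3, with TMM scaling, robust glmQLFit and a two-sided glmQLFTest of group, the model's sole term. Benjamini-Hochberg adjustment ran over all tested genes at 0.05. The SE of a log2 fold change comes from the quasi-likelihood F statistic. The procedure was tested on simulated data with 200 changed genes, whose folds were larger than most given here, so smaller folds were not covered. Levels are TMM-scaled CPM, and exon lengths, coordinates and 3' UTRs come from GENCODE 29 (GRCh38), which may differ from the authors' annotation.

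The members, classes and companion list were chosen with earlier results of these data known. Values in every library are given for called members and for the BCL2-like inhibitors, CFLAR, XIAP, BAK1 and BOK. Of the companions, up to 6 called genes in each direction with the smallest adjusted p were named, and 1 of these is not reported here. Alternatives were other scalings (DESeq2 size factors, library size), 2 other count filters, DESeq2 1.42.0, limma-voom (limma 3.58.1), a replicate block, and each library left out. Replicates differed from each other by more than sampling noise.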

Additional observations from a re-analysis of the deposited data

Results flagged for a closer look

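In each of the 39 tested members the 4 siDEPDC1 values were examined for a library set apart from the other 3, by Dixon's ratio of its gap to the nearest value over the whole range, a result that chance gives in about 1 of 20 such groups. A single value met this, with a ratio of 0.885. CFLAR was at 40.5 CPM in siDEPDC1 replicate 1 and at 37.6 to 37.9 CPM in the other 3 siDEPDC1 libraries, and all 4 lay below the siCTL range.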

How the results depend on the processing

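Over 14 distinct alternatives, 12 of the 15 called members kept their call in each, and no called member changed direction. The exceptions were CASP9 and TNFRSF10D, given with their values in the report, and MLKL. CASP9 also missed the threshold with no count filter (edgeR adjusted p = 0.072). Called members numbered 10 to 12 lower and 3 to 5 higher, against 11 and 4. Survival members numbered 3 to 4 lower and 0 higher, death-promoting members 5 to 7 lower and 3 to 5 higher, and companions 9 to 12 lower and 6 to 13 higher. Counting only members without the word GATAACT, an alternative added after seeing the data, left 7 lower. Same-numbered libraries did not deviate together (correlations of -0.116 to 0.00298 over the 3 pairs). That gives no sign that the numbers pair the samples, but 3 pairs are too few to exclude it. With a replicate block on numbers 1 to 3, which drops siDEPDC1 replicate 4, 10 members were lower and 3 higher, and MLKL and CASP9 missed the threshold (edgeR adjusted p = 0.062 and 0.12). Under library size alone the median of all genes was 0.031. Depth limits BCL2A1, HRK and RIPK3, which had 0 to 5 counts a library.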
